A study of Mus musculus with 8 samples.

Results

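Proteoglycan core proteins are the polypeptides to which cells attach glycosaminoglycan chains, and their mRNAs were followed here in mouse pancreatic ductal adenocarcinoma (PDAC) cells. The set comprised 9 genes, taken by symbol from the 53465 genes of the deposited count table: *Bgn*, *Dcn*, *Lum*, *Acan*, *Vcan*, *Hspg2*, *Sdc1*, *Sdc4* and *Gpc1*. Of these, 7 passed the filter on low counts and entered the tests, among 14301 tested genes. *Dcn* and *Lum* did not pass it.

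Proteoglycans of the extracellular matrix bind collagen fibrils (biglycan, decorin and lumican), aggregate on hyaluronan (aggrecan and versican) or build the basement membrane (perlecan, encoded by *Hspg2*). Syndecans and glypicans stay at the cell surface, the former by a transmembrane segment and the latter by a lipid anchor, and their heparan sulfate chains hold growth factors near receptors. In pancreatic cancer the stroma is rich in such molecules, and TGFβ is a classical inducer of matrix proteoglycan genes, acting through SMAD2/3 and SMAD4. Biglycan and decorin can themselves bind TGFβ.

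The cells came from primary pancreatic tumors of mice that carry, expressed only in the pancreas, a single-copy short hairpin RNA (shRNA) against *Smad4* that doxycycline (Dox) switches on. The cells of all 8 libraries carry an shRNA against *Smad4*, and which hairpin each line has was not given in the sources used here. Smad4-off cells were kept on Dox, and Smad4-on cells had been without it for 5 days before plating. Treatment began 24 h after plating and lasted 24 h, until harvest. Cells of either state received TGFβ1 at 100 pM or, to block signaling by the TGFβ type I receptor, SB505124 at 2.5 µM. The 4 groups held 2 libraries each, one from line B73 and one from line B87, so that every comparison rests on 2 tumor-derived lines and no group was left untreated. Dox and *Smad4* state changed together in these cells and cannot be told apart. Without untreated cells, a rise with TGFβ1 and a fall with SB505124 cannot be told apart either. A rise, fall or effect of TGFβ1 below is thus a difference from SB505124.

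Total counts ran from 18389235 to 23440550 per library. A floor of 3 counts, the smallest number taken as detectable, was 0.125 to 0.162 CPM (counts scaled to a common library total with edgeR's TMM factors). *Smad4* itself lay between 33.7 and 35.5 CPM in the 4 Smad4-off libraries and between 97.4 and 117 CPM in the 4 Smad4-on libraries. The ductal keratins *Krt8* and *Krt19* were present in every library, with at least 236 and 153 CPM, whereas *Epcam*, another epithelial marker, had only 3 to 39 counts. The lines stood apart in their markers. The 10 epithelial and ductal markers summed to 3970 to 6220 CPM in B73 and 1220 to 2110 CPM in B87, and 6 of the 9 tested were called lower in B87. Of all tested genes 8.37% were called between the lines in either direction. The 12 fibroblast markers summed to 8.75 to 45.9 CPM in B73 and 75.2 to 693 CPM in B87, *Col1a1* reaching 627 CPM, while 3 of them (*Thy1*, *Postn* and *Pi16*) had at most 3 counts in all 8 libraries. Of the 6 fibroblast markers tested, 4 were called higher in B87 and 1 lower. The 8 immune markers summed to at most 6.49 CPM in any library, and the 6 endothelial markers to at most 26.1 CPM.

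To set the genes beside one another, levels were expressed per kilobase of merged exon (RPKM). This length joins the exons of all annotated transcripts, 6099 bases for *Bgn* and 3809 bases for *Sdc1*. A gene read mainly as a shorter transcript is understated by it. Transcript use was not measured, so close ranks between genes depend on these lengths. On this scale *Sdc1* had the highest mean over the 8 libraries, 103 ± 17.1 RPKM (SD), with a range of 79.5 to 126. *Bgn* followed with 98.4 ± 88.8 RPKM and by far the wider range, 19.4 to 289. *Sdc4* (85.5 ± 21.1), *Hspg2* (64.3 ± 19.8) and *Gpc1* (33.3 ± 22.5) came next. Each of these 5 genes overlapped its neighbor in the order. A gap then separated *Gpc1*, with at least 10.4 RPKM, from *Vcan*, with 0.273 to 3.1 RPKM. *Acan*, at 0.0133 to 0.362 RPKM, overlapped the lowest *Vcan* values. *Dcn* had no counts in 6 libraries, 2 counts in Smad4-on B87 cells under SB505124 and 3 counts in Smad4-off B87 cells under TGFβ1. *Lum* had 0 counts in all 8, which allows at most the floor of 3 counts in each library. In bulk RNA, fewer cells expressing a gene and less RNA per cell cannot be told apart.

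**Figure D1:**
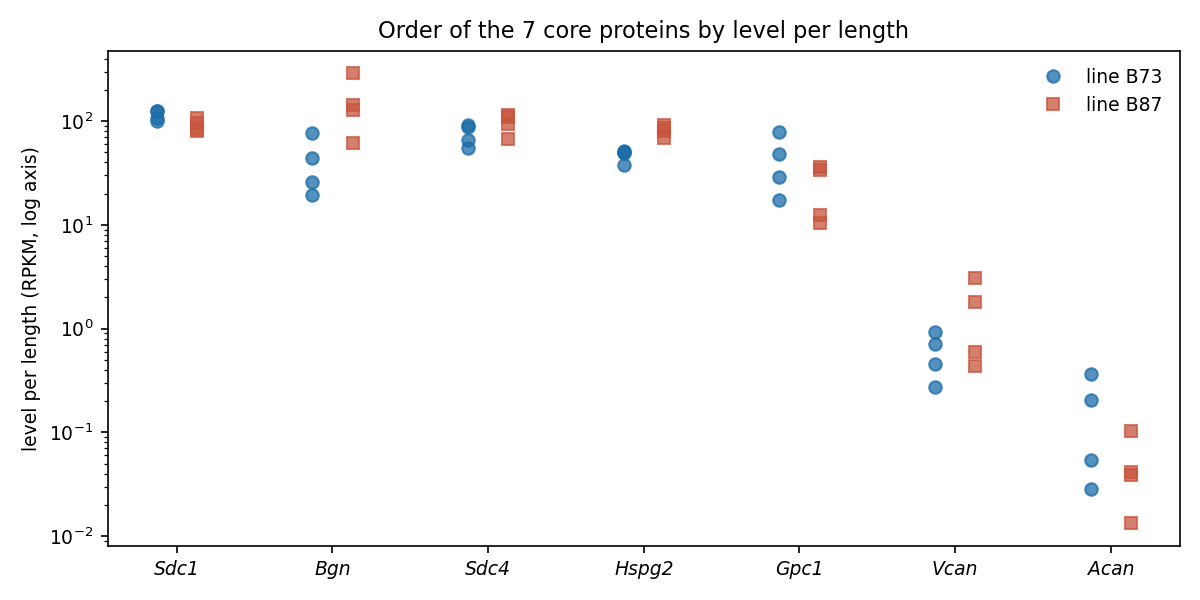
Level per length (RPKM, log axis) of the 7 tested core proteins, ordered by their mean over all libraries; each point is 1 library, circles B73 and squares B87. *Sdc1* stayed within 79.5 to 126 RPKM while *Bgn* ran from 19.4 to 289, and *Vcan* and *Acan* lay below the other 5; *Dcn* and *Lum* are not drawn because a log axis has no 0.

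The order depended on the line. *Sdc1* ranked first in all 4 B73 libraries and in Smad4-off B87 cells under SB505124. *Bgn* ranked first in the other 3 B87 libraries. Of the RPKM summed over the 9 genes, *Bgn* made up 7.24% to 19.1% in B73. In B87 its share was 18.6%, 32%, 31.1% and 47.7% in Smad4-off and Smad4-on cells under SB505124 and in Smad4-off and Smad4-on cells under TGFβ1. The share of *Sdc1* in these libraries was 28.9%, 26.5%, 17.4% and 13.9%. Shares sum to a fixed total, so that a higher share of one gene lowers those of the others. Ranks and shares alike rest on the merged exon lengths.

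Upstream sequences are shown for *Acan*, *Vcan* and *Bgn*, the 3 matrix members with a call in the comparisons described next. They are the 250 bases before the RefSeq start site on GRCm38.p6, 5′ to 3′ on the strand of the gene, and capitals mark GGCGC, a GC-rich SMAD element, on either strand. The *Acan* stretch is chr7:79052976-79053225 (plus strand), that of *Vcan* chr13:89742513-89742762 (minus strand) and that of *Bgn* chrX:73483351-73483600 (plus strand).
Acan: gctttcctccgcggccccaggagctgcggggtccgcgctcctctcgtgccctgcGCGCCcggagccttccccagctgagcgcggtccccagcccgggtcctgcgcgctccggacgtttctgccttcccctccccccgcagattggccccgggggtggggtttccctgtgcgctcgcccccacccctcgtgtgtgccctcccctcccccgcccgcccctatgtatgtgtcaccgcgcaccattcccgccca
Vcan: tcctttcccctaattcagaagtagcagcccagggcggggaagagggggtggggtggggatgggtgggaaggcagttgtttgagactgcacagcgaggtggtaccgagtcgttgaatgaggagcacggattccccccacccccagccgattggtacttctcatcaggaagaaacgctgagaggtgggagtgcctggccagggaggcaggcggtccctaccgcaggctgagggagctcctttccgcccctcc
Bgn: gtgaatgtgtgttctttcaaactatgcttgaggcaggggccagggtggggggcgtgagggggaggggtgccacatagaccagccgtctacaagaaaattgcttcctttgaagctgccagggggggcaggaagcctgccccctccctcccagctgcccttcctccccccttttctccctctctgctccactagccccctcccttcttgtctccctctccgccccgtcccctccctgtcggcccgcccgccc

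Of the 9 genes, 6 were in the set of RefSeq promoters used here, each of 300 bases (250 before and 50 after the start). That set held no entry for *Dcn*, *Lum* and *Gpc1*, whose promoters were not searched. Both strands were searched for CAGAC, the core of the SMAD-binding element, for GGCGC and for the AP-1 element TGACTCA, none of which contains another. *Acan* held 1 GGCGC, read GCGCC on its own strand, and *Sdc1* held 1 CAGAC and 1 GGCGC. *Hspg2* and *Sdc4* each held 4 GGCGC matches, some of which overlap because GGCGCC reads the same on both strands. *Bgn* and *Vcan* held none of the 3 motifs. Among 32851 promoters of the same length, 49.6% held CAGAC, 36.9% GGCGC and 5.2% TGACTCA, so these are common letters.

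*Bgn* (ENSMUSG00000031375; GRCm38 chromosome X, 73483602 to 73495933, plus strand, 7 merged exons) encodes biglycan, a small leucine-rich proteoglycan of collagen fibrils. In B73 it was measured at 158 CPM (Smad4 off, SB505124), 119 CPM (Smad4 on, SB505124), 466 CPM (Smad4 off, TGFβ1) and 270 CPM (Smad4 on, TGFβ1). In B87 the values in the same order were 376, 784, 867 and 1760 CPM. Within each treatment B87 thus exceeded B73 in both *Smad4* states, and within each line TGFβ1 libraries exceeded the SB505124 libraries of the same *Smad4* state. The 2 lines moved in opposite directions with *Smad4*. In B73 the Smad4-on libraries were below their Smad4-off partners (log2 ratio -0.79 under TGFβ1 and -0.42 under SB505124). In B87 they were above them (1.02 and 1.06).

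This difference of the *Smad4* effect between lines was tested with an interaction term over all genes. The treatments of a line stand in for replicates of it in this test. For *Bgn* it was 1.65 ± 0.15 on the log2 scale (SE, edgeR adjusted p 0.0187), and *Bgn* was the 1 member called, where 0.392% of 14301 genes were called. The call was kept in all 4 other settings and with each of the 8 libraries left out in turn, with log2 values from 1.46 to 1.83. Among those settings, dropping the fold-change rule cannot remove a call, so its outcome was fixed in advance. Pooled over lines, the *Smad4* effect on *Bgn* was 0.10 ± 0.458 under TGFβ1 and 0.36 ± 0.458 under SB505124 (edgeR adjusted p 0.924 and 0.815), smaller than its error. Of the 6 tested fibroblast markers edgeR called 0 in this comparison, with 4 at an unadjusted p under 0.05, and DESeq2 called 2. Of the 9 tested epithelial markers edgeR called 0, with 6 at an unadjusted p under 0.05, and DESeq2 called 2. The median log2 difference was 0.85 over the fibroblast markers, -0.92 over the epithelial markers and -0.01 over all genes. The sum of the 12 fibroblast markers, of which *Col1a1* alone reached 627 CPM, differed between *Smad4* states in the direction of *Bgn*. In B73 it was 45.9 CPM with Smad4 off and 13.2 CPM with Smad4 on under TGFβ1, and 21.6 and 8.75 CPM under SB505124. The B87 sums were 253 and 693 CPM, and 75.2 and 177 CPM. The summed epithelial markers went the other way, from 3970 to 5840 CPM (TGFβ1) and 4040 to 6220 CPM (SB505124) in B73, and from 1310 to 1220 CPM and 2110 to 1690 CPM in B87. The part of these markers in the *Bgn* result was not tested. *Gpc1* also split by line, as given below. Of the 13 other proteoglycan core proteins tested, *Tgfbr3* (betaglycan, a TGFβ co-receptor) was called in this comparison, with 2.37 ± 0.219 (edgeR adjusted p 0.0187).

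**Figure D2:**
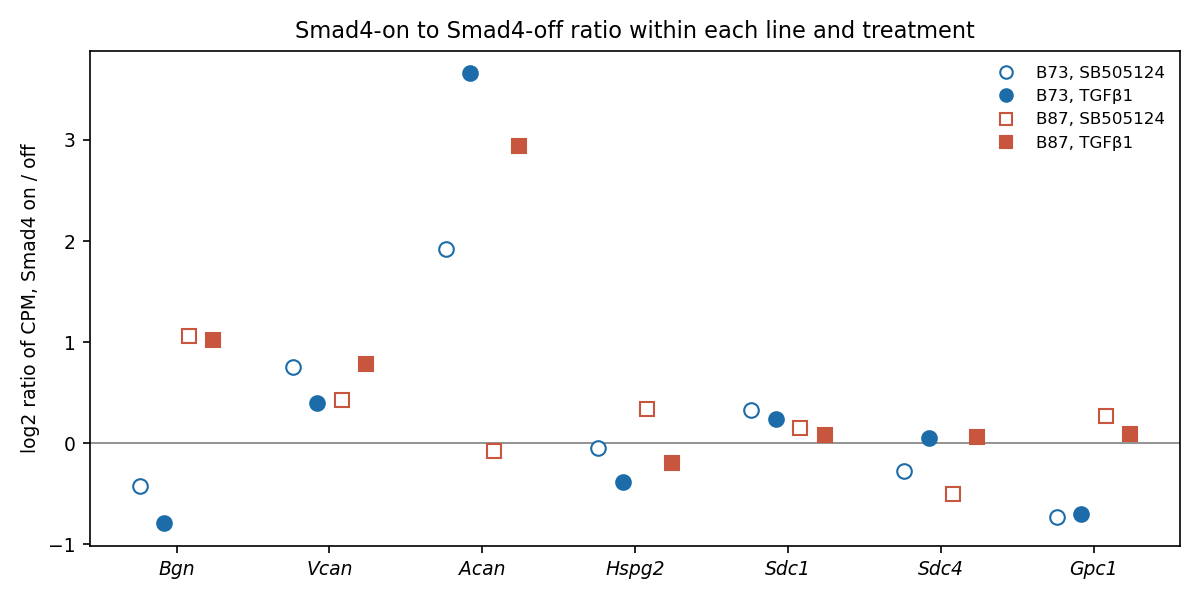
Log2 ratio of CPM, Smad4 on over Smad4 off, within each line (color and marker shape) and treatment (open SB505124, filled TGFβ1); each point is a ratio of 2 libraries, with no error of its own. *Bgn* lay below 0 in B73 and near 1 in B87, *Gpc1* lay near -0.7 in B73 and slightly above 0 in B87, and *Acan* stood highest under TGFβ1 in both lines, from counts of 53 or fewer.

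*Bgn* was about as high with TGFβ1 relative to SB505124 in both lines. The ratio was 2.28-fold in B73 and 2.25-fold in B87 in Smad4-on cells, and 2.94-fold and 2.31-fold in Smad4-off cells. Across the 8-library model these differences were 1.17 ± 0.454 and 1.43 ± 0.458 on the log2 scale and missed the threshold (edgeR adjusted p 0.0901 and 0.0889). That model has 1 *Smad4* effect for both lines. Fitted on only the 4 libraries compared, the difference passed in Smad4-on cells (1.18 ± 0.111, edgeR adjusted p 0.000162) and in Smad4-off cells (1.39 ± 0.116, edgeR adjusted p 0.000373). A fit on those libraries alone leaves only 1 residual degree of freedom. The difference also passed with no filter on low counts, with edgeR adjusted p 0.00083 and 0.000154. That setting called more genes in several other comparisons, as given below. With no replicate block, that is without the line in the model, *Bgn* did not pass (edgeR adjusted p 0.539 with Smad4 on and 0.627 with Smad4 off).

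*Dcn* (chromosome 10, 97479609 to 97518143) and *Lum* (chromosome 10, 97565128 to 97572703), which lie near each other and encode decorin and lumican, the other leucine-rich members, gave too few counts for any comparison. Both are abundant in fibroblasts, and their 0 to 3 counts stood beside *Col1a1*, which ran from 7 to 12305 counts. The other fibroblast markers were mixed. *Col3a1*, *Pdgfrb*, *Pdpn* and *Pdgfra* reached 833, 653, 535 and 154 counts. *Col1a2*, *Dpt*, *Mfap5* and *Fap* reached only 59, 18, 9 and 7 counts, and *Pi16*, *Postn* and *Thy1* 3, 2 and 1.

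*Vcan* (ENSMUSG00000021614; chromosome 13, 89655312 to 89742509, minus strand) encodes versican, a large chondroitin sulfate proteoglycan of provisional matrix. In B73 it was at 3.94 CPM (Smad4 off, SB505124), 6.65 CPM (Smad4 on, SB505124), 10.2 CPM (Smad4 off, TGFβ1) and 13.5 CPM (Smad4 on, TGFβ1). In B87 it was at 6.33, 8.53, 26.2 and 44.9 CPM in that order. All 4 TGFβ1 libraries lay above all 4 SB505124 libraries, although the lowest of the former, 10.2 CPM, was close to the highest of the latter, 8.53 CPM. *Vcan* was higher with TGFβ1 than with SB505124 in both states. The log2 difference was 1.75 ± 0.321 when *Smad4* was on (edgeR adjusted p 0.00678) and 1.73 ± 0.329 when it was off (edgeR adjusted p 0.0178). The fold was 2.03 in B73 and 5.26 in B87 in Smad4-on cells, and 2.59 and 4.13 in Smad4-off cells. The greater fold in B87, a log2 difference of 1.04 ± 0.232, did not pass (edgeR adjusted p 0.534, unadjusted p 0.00468). *Smad4* restoration gave 0.63 ± 0.301 under TGFβ1 and 0.61 ± 0.339 under SB505124, higher in both lines each time, without passing (edgeR adjusted p 0.264 and 0.521).

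*Acan* (ENSMUSG00000030607; chromosome 7, 79053483 to 79115099, plus strand) encodes aggrecan, the cartilage proteoglycan. It lay near the floor of 3 counts, and below it in Smad4-off B87 cells under TGFβ1. B73 libraries held 8 counts (Smad4 off, SB505124), 28 counts (Smad4 on, SB505124), 5 counts (Smad4 off, TGFβ1) and 53 counts (Smad4 on, TGFβ1), and B87 libraries held 7, 7, 2 and 15 counts. Under TGFβ1 the Smad4-on library was above the Smad4-off library in each line. The ratio was 12.6 in B73 (exact 95% counting interval 5.08 to 40.5) and 7.68 in B87 (1.79 to 69.2), where the denominator of 2 counts is below the floor. *Acan* was called higher with *Smad4* under TGFβ1, at a log2 change of 3.39 ± 0.562 (edgeR adjusted p 0.0181). It passed the filter through its Smad4-on libraries, and the call was lost when any of the 4 TGFβ1 libraries was left out, with log2 changes of 2.96 to 3.55. In such a fit the lone library of the group is assumed to vary like the other groups. The edgeR adjusted p was then 0.271 and 0.0812 without the Smad4-off library of B73 or B87, and 0.138 and 0.0531 without the Smad4-on library of B73 or B87. Under SB505124 the lines differed, with 28 against 8 counts in B73 and 7 against 7 counts in B87 (log2 1.13 ± 0.526, edgeR adjusted p 0.441). The difference of the *Smad4* effect between treatments, 2.26 ± 0.81, did not pass (edgeR adjusted p 0.377).

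**Figure D3:**
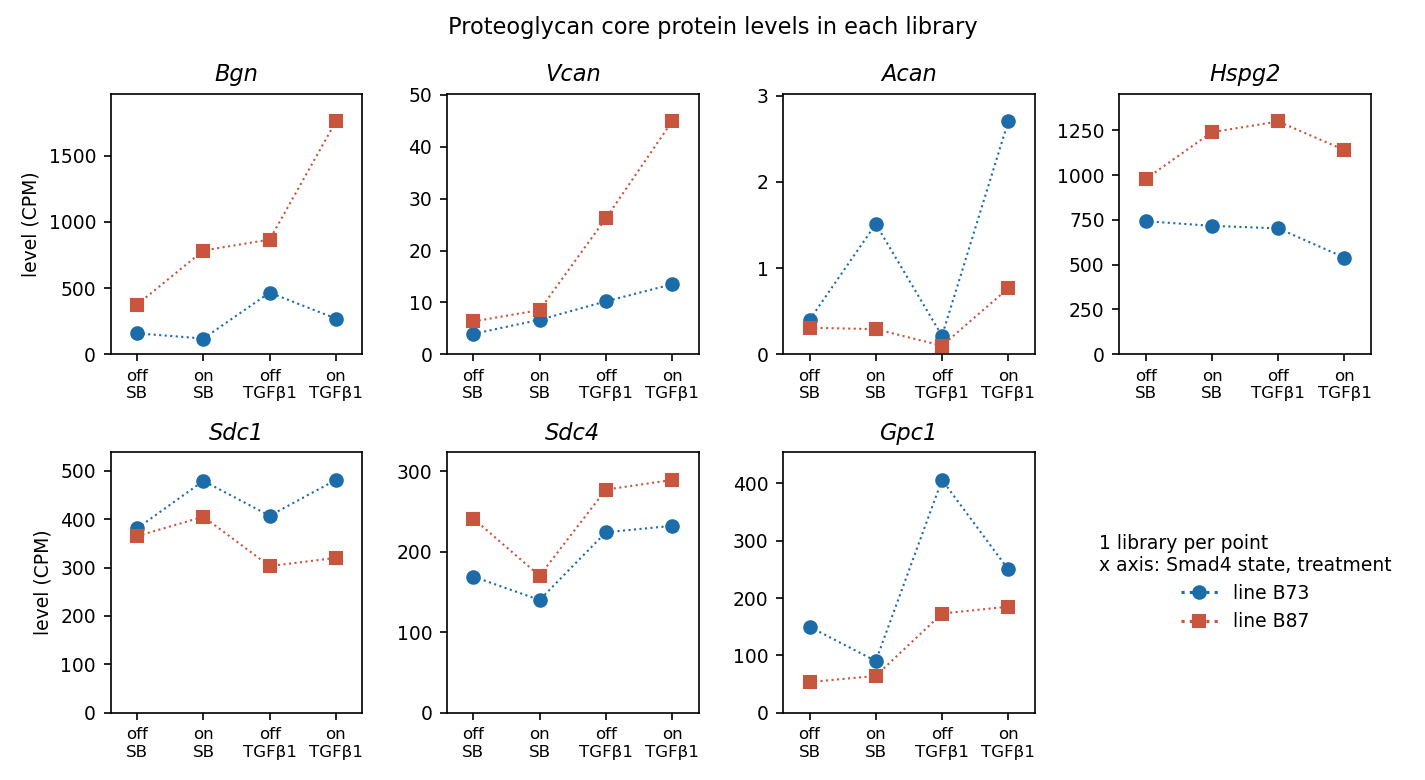
CPM of the 7 tested core proteins (linear axis from 0, scaled per gene) in each of the 8 libraries, by *Smad4* state and treatment; circles are B73, squares B87, and dotted lines only join the libraries of 1 line. *Bgn* in B87 climbed from 376 to 1760 CPM, *Vcan* was highest in the TGFβ1 libraries of both lines, and *Sdc1* stayed within 303 to 481 CPM.

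*Hspg2* (ENSMUSG00000028763; chromosome 4, 137468769 to 137570630, plus strand, 97 merged exons) encodes perlecan, the large heparan sulfate proteoglycan of basement membranes. It was read at 743, 717, 703 and 540 CPM in B73 and at 979, 1240, 1300 and 1140 CPM in B87, in the order of groups used above. All B87 libraries lay above all B73 libraries. None of the 4 comparisons of *Smad4* or TGFβ1 passed for *Hspg2*, with log2 fold changes between -0.28 ± 0.153 and 0.15 ± 0.154 and edgeR adjusted p of 0.244 or more.

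*Sdc1* (ENSMUSG00000020592; chromosome 12, 8771323 to 8793715, plus strand) encodes syndecan-1, the syndecan of epithelia. Its levels were 381, 479, 407 and 481 CPM in B73 and 365, 405, 303 and 320 CPM in B87. Smad4-on libraries were higher than their Smad4-off partners in each of the 4 pairs, yet by at most 1.26-fold. The log2 fold change was 0.17 ± 0.128 under TGFβ1 and 0.24 ± 0.128 under SB505124 (edgeR adjusted p 0.477 and 0.513). With TGFβ1 *Sdc1* was slightly higher in B73 (log2 ratios 0.01 and 0.09) and lower in B87 (-0.34 and -0.27), a difference between lines that did not pass (-0.35 ± 0.117, edgeR adjusted p 0.564).

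*Sdc4* (ENSMUSG00000017009; chromosome 2, 164424247 to 164443887, minus strand) encodes syndecan-4, a syndecan of focal adhesions. It was at 169, 140, 224 and 232 CPM in B73 and 241, 170, 277 and 289 CPM in B87. *Sdc4* rose with TGFβ1 in Smad4-on cells, with a log2 change of 0.75 ± 0.087 (edgeR adjusted p 0.00111), 1.66-fold in B73 and 1.7-fold in B87, which is under the 2-fold required of a call. In Smad4-off cells the change was 0.30 ± 0.0864 (edgeR adjusted p 0.0642). *Smad4* restoration under SB505124 left *Sdc4* lower in both lines, at -0.39 ± 0.0868 in log2 (unadjusted p 0.00293, edgeR adjusted p 0.105), whereas under TGFβ1 it was 0.06 ± 0.0862 (edgeR adjusted p 0.744). The difference between these effects, 0.44 ± 0.122, had an unadjusted p of 0.00851 and an edgeR adjusted p of 0.268.

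*Gpc1* (ENSMUSG00000034220; chromosome 1, 92831645 to 92860779, plus strand) encodes glypican-1, a lipid-anchored heparan sulfate proteoglycan found on pancreatic cancer cells. In B73 it was at 150 CPM (Smad4 off, SB505124), 90.2 CPM (Smad4 on, SB505124), 406 CPM (Smad4 off, TGFβ1) and 250 CPM (Smad4 on, TGFβ1). In B87 it was at 53.5, 64.3, 173 and 185 CPM. The TGFβ1 libraries, 173 CPM or more, all exceeded the SB505124 libraries, 150 CPM or less. *Gpc1* was higher in log2 with TGFβ1 than with SB505124 in both states. The difference was 1.5 ± 0.26 in Smad4-on cells (2.77-fold in B73 and 2.87-fold in B87, edgeR adjusted p 0.00542). In Smad4-off cells it was 1.54 ± 0.259 (2.71-fold and 3.23-fold, edgeR adjusted p 0.0116). With *Smad4* restoration *Gpc1* was lower in B73 (log2 ratios -0.70 under TGFβ1 and -0.73 under SB505124) and slightly higher in B87 (0.09 and 0.27). That difference between lines, 0.89 ± 0.131, fell just outside the threshold (edgeR adjusted p 0.0538).

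*Gpc1* shares 18.9% of its exon bases with *Ankmy1* on the opposite strand, and 17.5% of its 75-base stretches occur in a transcript of another gene. The libraries were stranded but the strand setting of the counting is not given in the sources used here, so reads of this overlap are uncertain. *Ankmy1* itself was given 1 to 5 counts per library. For the other 8 genes, at most 0.13% of the stretches were shared.

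Restoring *Smad4* under TGFβ1 therefore gave 1 call among the 7 tested members, *Acan*, where 3.12% of all tested genes were called. Since *Acan* passed the filter through the Smad4-on libraries, where it was high, this count is a description. The median log2 fold change was 0.10 over the 7 and -0.01 over all genes. Under SB505124 there were 0 calls among the members (1.09% of all genes). There edgeR gave 1 member, *Sdc4*, and 1809 genes an unadjusted p under 0.05, and DESeq2 also called 0 members. With no replicate block, that is without the line in the model, *Acan* was not called under TGFβ1 (log2 3.4 ± 1.04, edgeR adjusted p 0.264).

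TGFβ1 against SB505124 gave 2 calls, *Vcan* and *Gpc1*, both higher, in each *Smad4* state. In Smad4-on cells 13.9% of all genes were called and 5.62% were called higher, and in Smad4-off cells 5.93% and 3.11%. The median of the 7 members was 1.00 in Smad4-on cells and 0.30 in Smad4-off cells, against -0.02 over all genes in both. These 2 comparisons use different libraries. The median in Smad4-on cells is the value of *Acan* itself (1.00 ± 0.431, edgeR adjusted p 0.12). In Smad4-off cells *Acan* was at -1.25 ± 0.685 (edgeR adjusted p 0.283). With 2 to 53 counts over the libraries, *Acan* is 1 gene near the floor on which the difference between the medians depends. With no replicate block both calls were lost in both states, while the log2 changes were 1.94 (*Vcan*) and 1.49 (*Gpc1*) with Smad4 on and 1.82 and 1.51 with Smad4 off. The edgeR adjusted p were then 0.114 and 0.146, and 0.256 and 0.268. In Smad4-on cells *Vcan* was not called without the B87 library under SB505124 (edgeR adjusted p 0.0536). In Smad4-off cells *Vcan* was not called without the B87 library under SB505124 (0.132), without the B73 TGFβ1 library (0.0576) or without the B87 TGFβ1 library (0.133). *Gpc1* was not called in those cells without the first of these (0.0522) or the second (0.083).

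**Figure D4:**
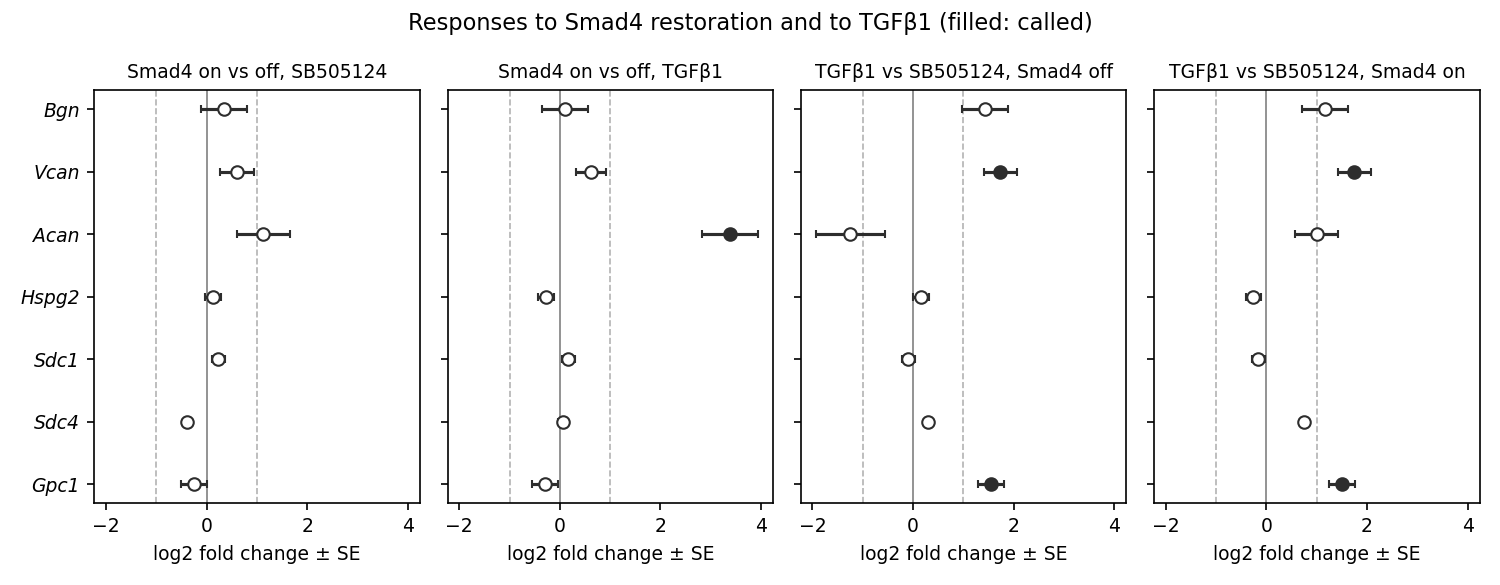
Log2 fold change ± SE of the 7 tested core proteins in the 4 comparisons (edgeR, 8 libraries, 2 per group); filled points were called, and dashed lines mark a 2-fold change. *Acan* was called with *Smad4* under TGFβ1 at 3.39, and *Vcan* and *Gpc1* with TGFβ1 in both *Smad4* states, at 1.5 to 1.75. *Acan*, near the floor, passed the filter through its Smad4-on libraries, so its filled point is a description.

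For no member was the *Smad4* effect called different between TGFβ1 and SB505124 (0 of 7, against 0.189% of all genes). By edgeR, 2 members (*Acan* and *Sdc4*) and 1493 genes had an unadjusted p under 0.05, and DESeq2 called 0 members. Nor was the TGFβ1 effect called different between lines for any member. No gene at all was called by edgeR (0%), with 1198 genes and 2 members (*Vcan* and *Sdc1*) at an unadjusted p under 0.05. DESeq2 called 25 genes and no member there, with 591 genes at an unadjusted p under 0.05.

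The lines themselves differed for every tested member, in a test where the conditions of a line stand in for its replicates. All 7 had an edgeR adjusted p under 0.05 between B87 and B73, and 3 were called (8.37% of all genes). *Bgn* was higher in B87, with a log2 difference of 1.89 ± 0.339 (edgeR adjusted p 0.0101), from 1.86-fold to 6.61-fold over the 4 groups. *Vcan* was higher in B87 by 1.08 ± 0.228 (edgeR adjusted p 0.0184) and *Acan* lower by -1.61 ± 0.372 (edgeR adjusted p 0.0259). Under 2-fold, *Hspg2* (0.79 ± 0.109) and *Sdc4* (0.35 ± 0.0612) were higher in B87, with edgeR adjusted p 0.00356 and 0.00877. *Gpc1* (-0.91 ± 0.183) and *Sdc1* (-0.33 ± 0.0904) were lower, with edgeR adjusted p 0.0156 and 0.046. The epithelial and fibroblast markers given above moved with line as well, and their part in these differences was not tested. The *Bgn* call was kept in the 4 alternatives and the 8 fits with a library left out that were run for it. These alternatives include dropping the fold-change rule, which cannot remove a call. The *Acan* call was lost in DESeq2 (adjusted p 0.103) and in 6 of 8 fits with a library left out, those without a Smad4-on SB505124, Smad4-off TGFβ1 or Smad4-on TGFβ1 library of either line (edgeR adjusted p 0.0604 to 0.137). The *Vcan* call was lost in the 4 fits without 1 of the TGFβ1 libraries, where its log2 difference was 0.83 to 0.98. *Gpc1* passed 2-fold, at -1.04 to -1.07, in the 4 fits without a Smad4-on library.

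Of 28 other proteoglycan core proteins, 13 were tested. Under TGFβ1 and under SB505124 (3.12% and 1.09% of all genes called) *Smad4* restoration gave 1 call, the same gene each time, *Sdc3* (syndecan-3). It was at 20.6 ± 10.3 CPM in Smad4-off and 79.5 ± 52.8 CPM in Smad4-on cells under SB505124, and at 82.8 ± 45.5 and 232 ± 56.5 CPM under TGFβ1 (SD, n = 2). In log2, *Sdc3* rose with *Smad4* by 1.6 ± 0.206 under TGFβ1 (edgeR adjusted p 0.00792) and by 1.89 ± 0.218 under SB505124 (edgeR adjusted p 0.0127). Relative to SB505124 it was higher with TGFβ1 by 1.70 ± 0.207 in Smad4-on cells (edgeR adjusted p 0.00134) and 1.99 ± 0.218 in Smad4-off cells (edgeR adjusted p 0.00267). *Sdc3* thus passed in all 4 comparisons, whereas *Sdc1* passed in none of them. With TGFβ1 2 of the 13 were called higher and 3 lower in Smad4-on cells (13.9% of all genes in either direction), and 1 higher and 2 lower in Smad4-off cells (5.93%). In Smad4-on cells *Tgfbr3* fell by 2.77 ± 0.702 in log2 (edgeR adjusted p 0.0231), from 15.7 ± 8.65 to 2.32 ± 1.33 CPM (SD, n = 2).

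Of 19 tested genes of glycosaminoglycan chain assembly, *Smad4* restoration gave 0 calls under either treatment by edgeR or DESeq2, with 4 (TGFβ1) and 0 (SB505124) at an unadjusted edgeR p under 0.05. By edgeR 3.12% (TGFβ1) and 1.09% (SB505124) of all genes were called. TGFβ1 gave 5 higher and 1 lower in Smad4-on cells, where 5.62% of all genes were called higher and 13.9% in either direction. It gave 3 higher and 1 lower in Smad4-off cells, beside 3.11% and 5.93% of all genes. *Csgalnact1*, which starts chondroitin chains, rose by 3.02 ± 0.566 in Smad4-on cells (edgeR adjusted p 0.0074), and *Chsy3*, a chondroitin synthase, by 1.91 ± 0.307 in Smad4-off cells (edgeR adjusted p 0.00977). *Slc35d1*, which carries nucleotide sugars into the endoplasmic reticulum, changed by -1.21 ± 0.117 and -1.02 ± 0.116 in log2 with Smad4 on and off (edgeR adjusted p 0.000548 and 0.00298). The median log2 fold change of the list was 0.04 and -0.01 in these comparisons.

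Of 22 tested genes that sulfate or edit the chains, *Smad4* restoration under TGFβ1 gave 1 call in each direction, and under SB505124 0 calls by edgeR (5 at an unadjusted p under 0.05) and 1 by DESeq2. By edgeR 3.12% (TGFβ1) and 1.09% (SB505124) of all genes were called in either direction. *Chst11*, a chondroitin 4-O-sulfotransferase, was at 0.26 ± 0.0565 and 0.965 ± 0.0113 CPM in Smad4-off and Smad4-on cells under SB505124, and at 6.14 ± 4.92 and 55.4 ± 16.2 CPM under TGFβ1 (SD, n = 2). *Chst11* rose with *Smad4* under TGFβ1 by 3.31 ± 0.354 (edgeR adjusted p 0.00435). Relative to SB505124 it was higher with TGFβ1 by 5.88 ± 0.436 in Smad4-on cells and 4.45 ± 0.566 in Smad4-off cells (edgeR adjusted p 0.000216 and 0.00442). *Hs3st1*, a heparan sulfate 3-O-sulfotransferase, took the reverse course. It fell with *Smad4* under TGFβ1 by 2.80 ± 0.349 (edgeR adjusted p 0.00736), and with TGFβ1 its log2 change was -3.99 ± 0.342 with Smad4 on and -1.34 ± 0.274 with Smad4 off (edgeR adjusted p 0.000338 and 0.0229).

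Among 11 tested genes whose products bind or cleave proteoglycans, *Smad4* restoration under TGFβ1 gave 1 call in each direction (3.12% of all genes in either direction). *Fbln2* (fibulin-2, a versican-binding matrix protein) rose by 1.35 ± 0.111 (edgeR adjusted p 0.00181), from 1950 ± 963 to 4870 ± 2080 CPM (SD, n = 2). *Adamts9*, a versican- and aggrecan-cleaving protease, fell by 3.39 ± 0.576 (edgeR adjusted p 0.0196), from 7.41 ± 3.69 to 0.689 ± 0.0366 CPM. *Adamts15*, a related protease, rose with *Smad4* under SB505124 by 3.00 ± 0.5 (edgeR adjusted p 0.0414), one of 2 calls, both higher (1.09% of all genes in either direction). The log2 change of *Adamts15* with TGFβ1 was -4.18 ± 0.539 with Smad4 on and -3.84 ± 0.757 with Smad4 off (edgeR adjusted p 0.0017 and 0.0205), within 2 higher and 3 lower calls in the former and 2 and 2 in the latter. Of all genes, 13.9% and 5.93% were called in either direction in these comparisons.

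Genes whose profile over the 8 libraries lay closest to a called member were found by the root mean square difference of centered log2 CPM. Nearest to *Vcan*, which varied by 1.07 about its own mean, were *Ptgs2os* (0.23), *Timp1* (0.29) and *Serpini1* (0.29). Nearest to *Gpc1*, which varied by 0.93, were *Arhgap24* (0.22), *Rbpms2* (0.23) and *Alcam* (0.27). *Acan*, which varied by 1.2, had no neighbor closer than *Elavl2* (0.55), *Cdc42ep3* (0.59) and *Trim15* (0.6). For *Bgn*, added after its values were seen, they were *Lrp1* (0.24), *Pcdhb20* (0.31) and *Itga9* (0.36), against 1.22 about its own mean.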

How the data were processed

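RNA was measured in 8 libraries, grouped by the line, Dox state and treatment in the sample labels. Per the labels and the study's methods, the authors selected poly(A) RNA, prepared stranded libraries, sequenced single-end reads of 75 bases, trimmed them with Trimmomatic 0.36, aligned them to GRCm38 with STAR 2.5.3a and counted them with featureCounts 1.6.3. The deposited table holds raw counts per gene, not normalized or pooled. How strand and multiply assigned reads were treated in the counting is not given in the sources used here.

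Counts were tested with edgeR 4.0.16 in R 4.3.3 (TMM, filterByExpr with a minimum count of 10, quasi-likelihood F-test) in 1 model of group and line over all 8 libraries and 14301 genes. The study used DESeq2 and names no covariate. A gene was called at a Benjamini-Hochberg adjusted p under 0.05 and over 2-fold. The tests of a difference between lines added a line by TGFβ1 or line by *Smad4* term. Standard errors are the log2 fold change over the root of F. Ratios per line used CPM. RPKM used merged exons of GENCODE M21, whose coordinates matched those deposited for all 9 genes.

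Lines pair the libraries, named in every title. As a check, the line deviations in one group were correlated with those in another over the tested genes, giving 0.642 to 0.774 over 6 pairs of groups (median 0.758). Since nothing says that a line was cultured more than once per condition, p-values of the *Smad4* and TGFβ1 comparisons measure the spread between 2 lines. Tests between the lines have 1 library per line and condition. Their p-values measure the spread across conditions within the same 2 lines and say nothing of other lines. PCR copies were not marked, so counting intervals and floors hold for counting error alone.

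Named genes were all members, then in each of 4 related lists and each comparison of *Smad4* or TGFβ1 the called gene with the largest rise and the largest fall (mean log2 CPM of at least 1, same sign in both lines), and 3 neighbors of each member called there. *Tgfbr3* and *Ankmy1* were also named after their values were seen. The members and lists were chosen with earlier results of these data known. The calling script was tested on simulated counts. Alternatives were DESeq2 1.42.0, its size factors in edgeR, no replicate block, no filter, no fold-change rule, the 4 libraries compared alone, each line alone and each library left out.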

Additional observations from a re-analysis of the deposited data

Results flagged for a closer look

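The *Smad4* effect on *Bgn* differed between lines, Smad4-on libraries being lower than Smad4-off libraries in B73 and higher in B87 under both treatments. The log2 difference was 1.65 ± 0.15 and passed its test (edgeR adjusted p 0.0187).

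Another 4 contrasts had opposite directions in every pair of libraries compared, and none passed the test of the difference. For *Gpc1* the *Smad4* effect differed between lines by 0.89 ± 0.131 (edgeR adjusted p 0.0538). For *Sdc1* the TGFβ1 effect differed between lines by -0.35 ± 0.117 (edgeR adjusted p 0.564). For *Sdc4* the *Smad4* effect under TGFβ1 exceeded that under SB505124 by 0.44 ± 0.122 (edgeR adjusted p 0.268), and for *Acan* by 2.26 ± 0.81 (edgeR adjusted p 0.377), the latter being the TGFβ1 effect that was positive in Smad4-on and negative in Smad4-off cells.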

How the results depend on the processing

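*Bgn* kept its calls between lines and in its *Smad4* effect between lines in the 4 alternatives and 8 fits with a library left out that were run for them. These do not include a fit without the line. *Gpc1* with TGFβ1 in Smad4-on cells was kept in 5 of 6 alternatives and in all 8 fits with a library left out. For *Bgn* and *Gpc1* alike, the alternatives include dropping the fold-change rule, which cannot remove a call. With no replicate block (the line left out of the model, although the lines pair the libraries), 0 members were called with *Smad4* under TGFβ1 and 0 with TGFβ1 in either *Smad4* state. The number of genes called was then 36 against 446 (*Smad4*, TGFβ1), 2 against 156 (*Smad4*, SB505124), 1035 against 1993 (TGFβ1, Smad4 on), 168 against 848 (TGFβ1, Smad4 off) and 0 against 27 (the *Smad4* effect between treatments, where 640 genes had an unadjusted p under 0.05). DESeq2 called 136 genes for the last of these, 25 where edgeR called 0 for the TGFβ1 effect between lines, and 105 where edgeR called 56 for the *Smad4* effect between lines. With no filter on low counts the counts were 783, 403, 284, 80 and 399 genes for *Smad4* under TGFβ1, *Smad4* under SB505124, the *Smad4* effect between treatments, the TGFβ1 effect between lines and the *Smad4* effect between lines, and 1 member (*Vcan*) passed in the fourth. With no fold-change rule 973 genes passed for *Smad4* under TGFβ1, 4751 and 1888 for TGFβ1 with Smad4 on and off, and 2660 between lines, with 7 members. Only the 4 libraries compared gave 73 genes for *Smad4* under SB505124. The cause of these shifts was not tested beyond what each setting changes.

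With each library left out in turn, members called ranged from 0 to 1 for *Smad4* under TGFβ1, 1 to 3 for TGFβ1 with Smad4 on, 0 to 2 with Smad4 off, 1 to 3 between lines and 1 to 2 for the *Smad4* effect between lines. Genes called ranged from 156 to 453 and 46 to 161 for *Smad4* under TGFβ1 and SB505124, 377 to 879 for TGFβ1 with Smad4 off, 0 to 14 for the *Smad4* effect between treatments and 56 to 156 for that between lines. Log2 changes that were not called crossed 0. With *Smad4* under TGFβ1 these were *Bgn* (-0.54 to 0.81), *Sdc1* (-0.01 to 0.33) and *Gpc1* (-0.62 to 0.01), and under SB505124 *Bgn* (-0.24 to 0.87), *Hspg2* (-0.11 to 0.41) and *Gpc1* (-0.61 to 0.15). With TGFβ1 they were *Sdc1* with Smad4 on (-0.34 to 0.01) and, with Smad4 off, *Hspg2* (-0.09 to 0.43) and *Sdc1* (-0.26 to 0.1). Scaling by DESeq2 size factors changed no member's call.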
